A study of Homo sapiens with 22 samples.

Results

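ID1, ID2, ID3 and ID4 are the 4 members of the family of inhibitors of DNA binding, and they are 4 of the 38224 genes listed for the single-cell libraries. They were selected on their measured levels in these libraries, which moved in opposite directions under a PI3K inhibitor and a TGF-beta receptor inhibitor. The values in those 2 treatments therefore chose the genes and are given as a description, without a test. The study asked how melanoma cells enter and leave a primed state, a rare and reversible state from which cells survive targeted therapy, and it used WM989 and WM983B, human melanoma cell lines that were each grown from a single cell.

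After treatment, 4 groups of WM989 cells were compared, each with 2 libraries. The first group was left untreated, and no vehicle is named for it. The second received recombinant TGFB1, the ligand of the TGF-beta receptors, at 5 ng/mL. The third received LY2109761, an inhibitor of the TGF-beta receptor kinases (TGFBRi), at 4 µM, and the fourth received GDC-0941, an inhibitor of class I PI3 kinases (PI3Ki), at 2 µM. All 3 treatments lasted 5 days. Each replicate culture was divided over the 4 arms, so the libraries r1 form one set and the libraries r2 another. The replicates are called Mix and Primed in the sample labels and r1 and r2 in the labels of the cells, and the sources used here do not match one naming to the other. A further 8 wells of WM989 and 1 library of WM983B held cells that were not treated with any of these agents. By the paper's methods the WM989 wells came from a mixed sort and from a sort of EGFR- and NGFR-high cells, each loaded over 2 wells. Open chromatin was measured in 12 libraries of sorted WM989 cells.

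ID proteins carry a helix-loop-helix domain but no basic region that contacts DNA. They pair with E proteins such as TCF3, TCF4 and TCF12 and hold them away from their E-box sites, and through this they keep many cell types from differentiating. Bone morphogenetic proteins (BMPs) bind receptor complexes that phosphorylate SMAD1, SMAD5 and SMAD9, and ID1, ID2 and ID3 are among the best known genes that these SMADs switch on. ID4 is the most divergent member in its regulation and can oppose the others. TGF-beta itself acts mainly through SMAD2 and SMAD3 and can raise or repress ID genes, depending on the cell.

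The treated libraries held 40021 cells, with 3692 to 6273 cells and 70239657 to 122420544 UMIs (unique molecular identifiers, each counting 1 captured transcript) per library. Levels are given in CPM, the usual scaling of counts to a library's total, from the UMIs summed over its cells. These are 3′ counts that are not scaled for length, so levels were not compared between genes. The authors' labels put 2.26 to 4.47% of untreated cells, 29.1 to 31.3% of TGFB1 cells, 2.26 to 4.32% of TGFBRi cells and 0.647 to 1.21% of PI3Ki cells in the primed state. G1 cells made up 32.7 to 34.0% of untreated, 44.1% of TGFB1, 31.0 to 32.0% of TGFBRi and 43.6 to 44.1% of PI3Ki libraries. All 7 of 7 melanocyte markers were above 1 CPM, with a summed level of 3009 to 5875 CPM, lowest in TGFB1 and highest in PI3Ki. The 4 leukocyte markers summed to 0.588 to 0.973 CPM with CD3E at 0, and the 4 epithelial markers to 0.125 to 0.228 CPM with KRT5 at 0. The 3 endothelial markers summed to 0.313 to 3.63 CPM, highest in the 2 TGFB1 libraries, and the 4 fibroblast markers to 20.9 to 32.6 CPM. Cell barcodes that recurred in another library of the same experiment accounted for 388 of the 40021 treated cells, 38 of the 12531 WM989 cells and 0 of the 1449 WM983B cells.

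The promoters are shown first because under the 2 inhibitors, the contrasts that selected the genes, ID1, ID2 and ID3 moved one way and ID4 the other. Each sequence holds the 250 bases before the RefSeq start of the gene on GRCh38.p14, read 5′ to 3′ on the strand of the gene. Capitals mark the CCAAT box (CCAAT, or ATTGG on the other strand), the TATA element (TATAA, or TTATA on the other strand) and the E-box (CANNTG), which is the site that E proteins bind. The CCAAT and TATA motifs were picked after the sequences had been read.
ID1, chr20:31605039-31605288, plus strand: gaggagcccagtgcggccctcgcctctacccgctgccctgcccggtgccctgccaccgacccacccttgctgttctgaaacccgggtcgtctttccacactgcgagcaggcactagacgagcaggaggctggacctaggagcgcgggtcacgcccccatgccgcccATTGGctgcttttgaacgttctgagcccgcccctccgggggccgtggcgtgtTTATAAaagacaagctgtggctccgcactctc
ID2, chr2:8681806-8682055, plus strand: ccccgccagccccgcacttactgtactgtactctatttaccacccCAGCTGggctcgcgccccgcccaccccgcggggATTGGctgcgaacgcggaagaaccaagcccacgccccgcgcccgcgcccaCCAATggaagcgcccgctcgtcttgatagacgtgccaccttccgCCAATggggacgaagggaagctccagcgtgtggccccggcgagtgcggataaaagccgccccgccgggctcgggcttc
ID3, chr1:23559502-23559751, minus strand: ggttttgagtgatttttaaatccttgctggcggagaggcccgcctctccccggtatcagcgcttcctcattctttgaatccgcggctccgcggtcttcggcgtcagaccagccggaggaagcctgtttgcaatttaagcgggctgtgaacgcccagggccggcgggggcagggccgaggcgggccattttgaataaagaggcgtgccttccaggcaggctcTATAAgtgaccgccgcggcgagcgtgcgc
ID4, chr6:19837120-19837369, plus strand: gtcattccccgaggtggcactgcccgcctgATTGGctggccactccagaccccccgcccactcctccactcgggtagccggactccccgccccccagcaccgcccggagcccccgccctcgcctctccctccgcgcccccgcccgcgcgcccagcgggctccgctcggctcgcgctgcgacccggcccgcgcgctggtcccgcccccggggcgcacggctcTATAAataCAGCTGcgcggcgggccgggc

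ID2 held 3 CCAAT boxes, ID1 and ID4 held 1 each and ID3 held none. At least 1 CCAAT box is present in 33% of the 27305 promoters of this length, and at least 3 in 3.09%. A TATA element began at position -32 in ID1 and at position -29 in ID3 and ID4, counted back from the start, whereas ID2 had none, and 19.6% of all promoters hold this element somewhere in the window. In ID1 the matches on the 2 strands overlap. An E-box was found once in ID2 and once in ID4, and in ID1 and ID3 these letters did not occur. E-boxes are found in 62.2% of all promoters. GGCGCC, the core of a GC-rich SMAD1/5 site, and GTAAACA, the FOXO site, did not occur in any of the 4 windows. They are present in 16.1 and 2.98% of promoters. Bases outside these windows were not searched, so sites further from the starts are not covered. The GC content was 66% for ID1, 69.2% for ID2, 62% for ID3 and 78.8% for ID4, and 95.5% of all promoters had a lower GC content than ID4.

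ID1, ID2 and ID3 were lowest under TGFBRi, higher in untreated cells, higher again under TGFB1 and highest under PI3Ki, and ID4 followed the reverse order. ID3, which restrains lymphocyte and muscle differentiation, stood at 40.5 CPM in untreated r1 and 47.1 in r2. Under PI3Ki it was 129 and 148 CPM, under TGFB1 78.7 and 74.5, and under TGFBRi 5.70 and 5.39. The PI3Ki levels were 3.19 and 3.14 times those of the untreated library of the same replicate. Under TGFBRi ID3 was at 0.141 and 0.114 of the untreated level.

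ID1, a gene tied to self-renewal and angiogenesis, was at 11.7 and 14.4 CPM in untreated cells and at 35.1 and 42.0 CPM under PI3Ki. It measured 18.6 and 21.1 CPM under TGFB1 and 2.88 and 2.99 CPM under TGFBRi. Its PI3Ki levels were 2.99 and 2.91 times the untreated ones, and its TGFBRi levels were 0.246 and 0.207 of them. ID2, a partner of E proteins that also binds the retinoblastoma protein, covered a narrower range. ID2 stood at 8.20 and 8.35 CPM in untreated cells, 17.8 and 18.0 under PI3Ki, 11.98 and 11.5 under TGFB1, and 4.76 and 4.13 under TGFBRi. For ID1, ID2 and ID3 the libraries of the 4 groups did not overlap. Of these groups PI3Ki and TGFBRi selected the genes, and the share of all genes that separate in this way is not given here.

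ID4, a regulator of neural and mammary progenitors, was at 25.5 and 27.8 CPM in untreated cells. It was 35.3 and 36.1 CPM under TGFBRi, 21.6 and 21.1 under TGFB1, and 18.4 and 19.6 under PI3Ki. Both TGFBRi libraries were above both untreated libraries and both PI3Ki libraries were below them. The change was smaller than in the other members, with PI3Ki levels at 0.719 and 0.705 and TGFBRi levels at 1.38 and 1.30 of the untreated level.

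**Figure D1:**
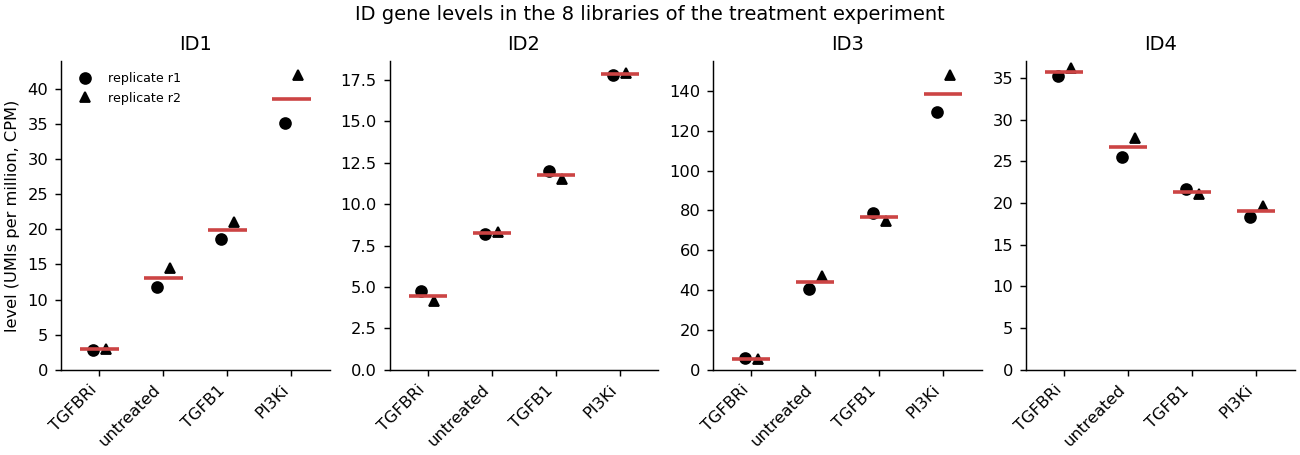
Level of each ID gene (CPM, vertical axis from 0) in the 2 libraries of each treatment, with r1 and r2 as separate points and a red bar at the mean of the 2. ID1, ID2 and ID3 climb from TGFBRi through untreated and TGFB1 to PI3Ki, ID3 from 5.39 to 148 CPM, while ID4 descends from 36.1 to 18.4 CPM.

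On the log2 scale, in a fit of all genes over the 8 libraries with the replicate as a term (edgeR), the PI3Ki libraries differed from untreated by 1.66 ± 0.072 (SE, 2 libraries a group) for ID1. The difference was 1.22 ± 0.079 for ID2, 1.76 ± 0.079 for ID3 and -0.39 ± 0.069 for ID4. The TGFBRi libraries differed by -2.14 ± 0.089 for ID1, -0.88 ± 0.089 for ID2, -2.97 ± 0.092 for ID3 and 0.44 ± 0.068 for ID4. Because all treatments share the untreated libraries, PI3Ki was also set against TGFBRi directly. That log2 difference was 3.80 for ID1, 2.10 for ID2, 4.73 for ID3 and -0.82 for ID4. These values come from the contrasts that selected the genes, so no p is given. For reference, 12.7% of the 18389 genes tested passed an adjusted p of 0.05 under PI3Ki (5.83% as higher) and 2.53% under TGFBRi (1.09% as higher).

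The members did not change by the same amount. Under both inhibitors the log2 difference from untreated was smallest in size for ID4. Under TGFBRi it was largest for ID3 when all cells were summed. Under PI3Ki, ID1 (1.66 ± 0.072) and ID3 (1.76 ± 0.079) were close and are not ranked. For ID1 and ID3 the difference was larger under TGFBRi than under PI3Ki, and for ID2 it was smaller. For ID4 the sizes were close, at 0.44 ± 0.068 under TGFBRi and -0.39 ± 0.069 under PI3Ki, and are not ranked.

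TGFB1 against untreated was not part of the selection and was tested, though its untreated libraries are those of the selecting contrasts. ID1, ID2 and ID3 rose and ID4 fell. The log2 change was 0.59 ± 0.074 for ID1 (edgeR quasi-likelihood test with Benjamini-Hochberg adjustment over 18389 genes, adjusted p = 1.49e-06) and 0.49 ± 0.081 for ID2 (edgeR, adjusted p = 6.28e-05). It was 0.80 ± 0.078 for ID3 (edgeR, adjusted p = 3.98e-08) and -0.33 ± 0.069 for ID4 (edgeR, adjusted p = 0.000765). In this contrast 29.0% of all genes tested passed, 16.3% as higher, so that a call alone sets a gene little apart. In summed libraries, fewer cells of a state and less RNA per cell cannot be told apart, and 29.1 to 31.3% of TGFB1 cells were primed against 2.26 to 4.47% of untreated cells. Markers of other cell types also moved under TGFB1. PECAM1, an endothelial marker, was at 3.22 and 2.32 CPM against 0.346 and 0.324 CPM untreated (edgeR, called). Of the other 2 endothelial markers, VWF was at most 0.47 CPM and CDH5 at most 0.05 CPM, and neither was called. COL1A2 and PDGFRA, 2 of the 4 fibroblast markers, rose 5.81-fold and 2.39-fold (edgeR, both called) to at most 2.79 CPM. LUM, which makes up most of the fibroblast sum, was at 28.1 and 25.1 CPM against 28.6 and 29.0 CPM untreated, and LUM and DCN were not called. Of 7 melanocyte markers 4 were called lower and 0 higher. Under PI3Ki 2 of the 4 fibroblast markers were called lower and 0 higher, and 3 of 7 melanocyte markers were called higher and 1 lower. The part of these markers in the values of the ID genes was not tested.

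The TGFB1 change depended on which cells were summed. In G1 cells alone 32.5% of 15452 genes passed. ID1 (0.60) and ID3 (1.16) were still called, while ID2 at 0.17 ± 0.11 (edgeR, adjusted p = 0.238) and ID4 at 0.080 ± 0.097 (edgeR, adjusted p = 0.575) were not, and ID4 turned direction. When only drug-susceptible cells were kept, 14.9% of 17914 genes passed, and ID3 still rose, by 0.48 ± 0.077 (edgeR, adjusted p = 8.75e-05). ID1 then stood at 0.015 ± 0.085 (edgeR, adjusted p = 0.937) and ID4 at -0.054 ± 0.069 (edgeR, adjusted p = 0.676). ID2 turned direction and fell by 0.32 on the log2 scale (SE 0.091, edgeR, adjusted p = 0.0164). The drug-susceptible cells of the TGFB1 and untreated arms lay largely in different clusters of the authors' map. Cluster 3 held 3801 TGFB1 and 115 untreated cells, and cluster 0 held 234 and 2971. The TGFB1 values in drug-susceptible cells thus also compare different clusters, and the part of this was not tested. The inhibitor values in drug-susceptible cells were close to those in all cells, at 1.69, 1.25, 1.76 and -0.40 for ID1 to ID4 under PI3Ki and -2.27, -0.86, -3.02 and 0.44 under TGFBRi. In G1 cells alone they were 1.97, 1.25, 2.10 and -0.15 under PI3Ki and -2.66, -0.86, -2.68 and 0.54 under TGFBRi, so that the PI3Ki value of ID4 was smaller than in all cells (-0.39). PI3Ki libraries held more G1 cells than untreated libraries (43.6 to 44.1% against 32.7 to 34.0%), and ID4 was lower in G1 than in the other phases; the part of phase in that value was not tested.

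The levels behind these values were as follows. In drug-susceptible cells ID2 was at 8.05 CPM in both untreated libraries and at 6.32 and 6.68 CPM under TGFB1. In primed cells it was at 16.4 and 17.7 CPM untreated and at 28.8 and 25.0 CPM under TGFB1. The primed class lay in different clusters of the authors' map in the 2 arms, with 1548 of 1577 and 1706 of 1757 primed TGFB1 cells in cluster 4 and 89 of 94 and 159 of 165 primed untreated cells in cluster 10. The primed values of TGFB1 and untreated libraries therefore compare different clusters. Within cluster 10, with 29 and 51 TGFB1 cells, ID2 was at 14.03 and 13.0 CPM under TGFB1 and at 13.7 and 18.4 CPM in untreated cells, ranges that overlap. ID2 was higher in primed than in drug-susceptible cells in 8 of 8 treated libraries. The median mitochondrial share was lower in primed cells in all 8 (7.56 to 8.38% against 10.3 to 11.4%), and its part in the state differences was not tested.

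ID4 showed the opposite split under TGFB1. Its level was 25.9 and 26.0 CPM in drug-susceptible cells and 8.95 and 7.65 CPM in the 1577 and 1757 primed cells of the TGFB1 libraries. In untreated libraries the 94 and 165 primed cells were at 26.1 and 27.8 CPM, close to the 25.5 and 27.8 CPM of drug-susceptible cells. These values again set cluster 4 against cluster 10. Within cluster 10 ID4 was at 22.5 and 26.0 CPM under TGFB1 and at 28.2 and 27.6 CPM in untreated cells, and in cluster 4 it was at 8.70 and 7.13 CPM under TGFB1. The difference between the arms was not tested.

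ID3 in primed cells was at 127 and 115 CPM under TGFB1 and at 61.9 and 38.6 CPM in untreated cells, with the same shift between clusters. Within cluster 10 it was at 47.7 and 52.0 CPM under TGFB1 and at 27.4 and 39.3 CPM in untreated cells. Under TGFBRi, primed cells held 24.0 and 6.94 CPM of ID3 and 14.7 and 13.9 CPM of ID1, against 5.36 and 5.33 CPM and 2.67 and 2.60 CPM in drug-susceptible cells. Primed PI3Ki cells numbered 25 and 70, and their ID4 level was 14.02 CPM in r1, on 4 UMIs, and 44.6 CPM in r2, on 43 UMIs. In r2 ID4 was thus higher in primed PI3Ki cells than in primed untreated cells (27.8 CPM), unlike in drug-susceptible cells. The ID3 level of drug-susceptible cells was 129 and 148 CPM under PI3Ki against 40.2 and 47.4 CPM in untreated cells.

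**Figure D2:**
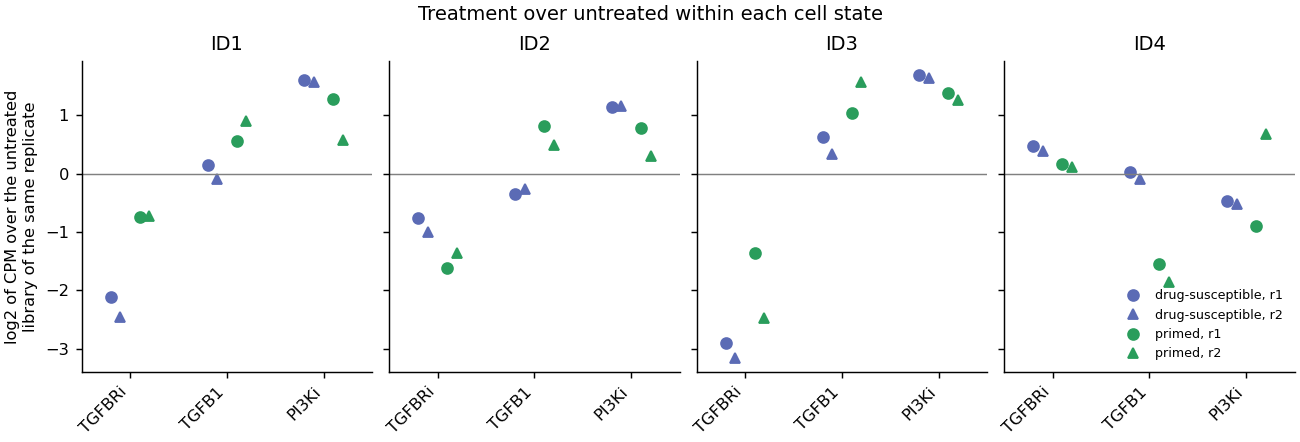
Log2 of the CPM under each treatment over the CPM of the untreated library of the same replicate (vertical axis), for drug-susceptible and primed cells apart, with a point for each replicate. Under TGFB1 the ID2 points lie below 0 in drug-susceptible and above 0 in primed cells, while the inhibitor points of ID1 and ID3 keep their side of 0 in both states. Primed TGFB1 cells lie mostly in cluster 4 and primed untreated cells mostly in cluster 10. Among drug-susceptible cells, cluster 3 holds 3801 TGFB1 and 115 untreated cells.

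The inhibitor values that selected the genes were also counted within the 13 clusters that the authors drew, as a description of the same cells. Where a cluster had at least 20 cells in both arms of a replicate, ID1 was higher under PI3Ki in 19 of 20 comparisons, ID2 in 19 of 20 and ID3 in 20 of 20, and ID4 was lower in 17 of 20. Under TGFBRi, ID1 and ID3 were lower in 18 of 18 comparisons, ID2 was lower in 17 of 18 and ID4 was higher in 15 of 18. Under TGFB1 the pattern inside clusters was not that of the whole libraries. ID1 was lower in 12 of 18 comparisons and ID2 in 14 of 18, ID3 was higher in 12 of 18, and ID4 was lower in 16 of 18. These comparisons share cells of the same libraries and are not replicates.

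Cluster 0, the largest with 9017 cells, gives an example in cells of all 4 arms. ID3 was at 33.8 and 35.4 CPM in its untreated cells, at 84.3 and 98.5 CPM under PI3Ki, at 30.2 and 44.2 CPM under TGFB1 and at 6.31 and 5.79 CPM under TGFBRi. In cluster 1, with 6483 cells, ID4 was at 39.6 and 42.7 CPM untreated, 29.3 and 31.0 CPM under PI3Ki and 53.1 and 59.5 CPM under TGFBRi. In cluster 0 ID4 was at 14.5 and 15.4 CPM untreated and at 14.5 and 14.1 CPM under PI3Ki, which are close. Under TGFBRi it was at 24.3 and 25.9 CPM there. The level of ID4 thus differed between these clusters as well as between treatments, and its PI3Ki difference was not alike in the 2 clusters.

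Cluster levels summed over all libraries mix the treatments, so clusters were also ranked within each library. In both PI3Ki libraries ID3 was highest in cluster 9, at 215 and 244 CPM. Cluster 6, whose 2531 cells were 88.5% PI3Ki cells, had the highest ID3 level in the sum over libraries, 199.6 CPM, and in untreated r1, 127 CPM. In both TGFB1 libraries cluster 4, with 3254 TGFB1 cells among its 3270, had the highest ID1, ID2 and ID3 levels and the lowest ID4 level. ID2 was highest in cluster 6 in both TGFBRi libraries, at 12.01 and 9.11 CPM. ID4 was highest in cluster 1 in both TGFBRi libraries, at 53.1 and 59.5 CPM, and in cluster 8 in both TGFB1 libraries, at 40.2 and 39.9 CPM. ID2 was lowest in cluster 2 in both untreated, both PI3Ki and both TGFB1 libraries. ID1 was highest in cluster 10 in both TGFBRi libraries, but in different clusters in the 2 PI3Ki and in the 2 untreated libraries. In the sum over libraries, the ratio of the highest to the lowest cluster was 4.87 for ID1, 5.11 for ID2, 6.45 for ID3 and 5.49 for ID4. In that order, the library ranges overlapped in 11 of 12 neighbouring pairs of clusters for ID1, 12 of 12 for ID2 and ID3 and 11 of 12 for ID4. The clusters were drawn from the expression of these same cells, so these levels are a description.

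**Figure D3:**
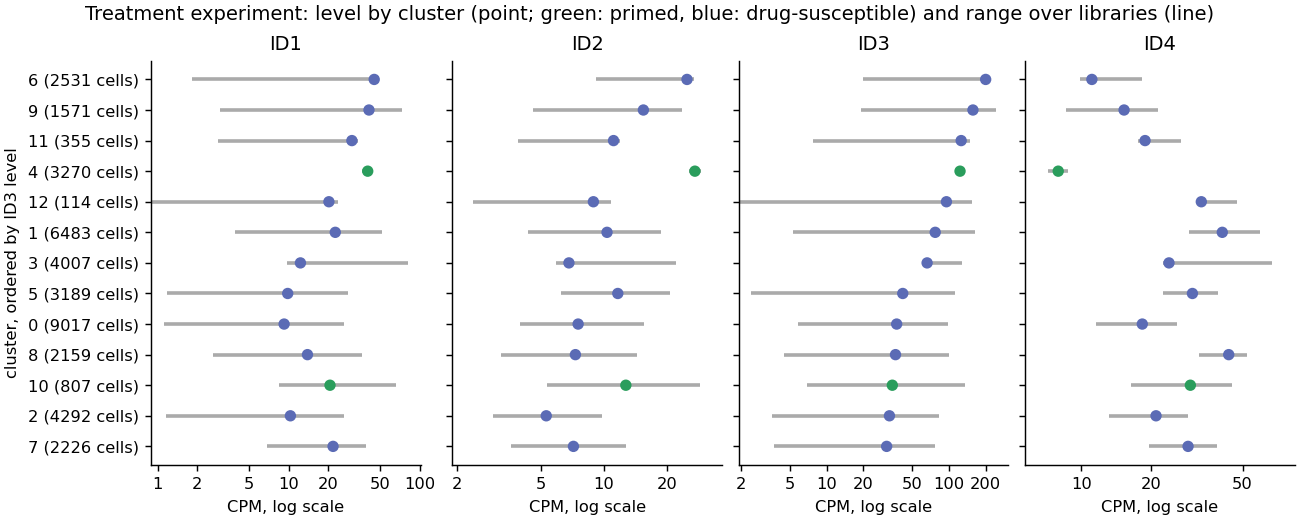
CPM of each ID gene (horizontal log axis) in the 13 clusters of the treated WM989 cells, with a point for the summed cluster and a line over the range of its libraries; a line that reaches the left edge marks a library with a level of 0. The points mix treatments in unequal shares, and the ranges of neighbouring clusters overlap for nearly all pairs.

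Other genes of the BMP and TGF-beta pathway and of the HLH network were taken from 10 lists, which name 150 genes, of which 114 passed the filter on low counts. Under TGFB1 71 of the 114 were called by edgeR (62.3%, against 29.0% of all genes), 52 as higher and 19 as lower, with a median log2 change of 0.19 against 0.0059 over all genes tested. Under TGFBRi 17 were called (14.9%, against 2.53%), 5 as higher and 12 as lower, with a median of -0.03 against 0.0031. PI3Ki changed 35 (30.7%, against 12.7%), 11 up and 24 down, with a median of -0.02 against 0.0026. The lists were drawn up with earlier results known.

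Many of these calls were lost when 1 library was left out, which also lowers the residual degrees of freedom from 3 to 2, and the cause was not tested. Of the called genes, 45 of 71 under TGFB1, 3 of 17 under TGFBRi and 7 of 35 under PI3Ki kept their call whichever of the 8 libraries was left out. The 3 under TGFBRi were BMPR2, SKIL and PMEPA1, and those under PI3Ki included BMPR2, ERBB3, TXNIP, FN1, COL1A1 and CDKN1A. BMPR2 was the one gene of the lists in all 3 of these sets. Counted over list entries, where a gene in 2 lists counts in each, 20 were called under TGFBRi with all libraries, 5 without untreated r2 and 10 without untreated r1. Under PI3Ki 36 were called with all libraries, 11 without PI3Ki r2, 12 without PI3Ki r1, 13 without untreated r2 and 16 without untreated r1. Genes named in the next paragraphs were called with all libraries, unless it is said that they were not.

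Of the 18 BMP and GDF ligands 4 passed the filter on low counts and were tested. Over the 8 libraries BMP7 was at 1.12 to 3.47 CPM, BMP8B at 8.22 to 14.1 CPM, GDF11 at 32.7 to 55.2 CPM and GDF15 at 92.0 to 156 CPM. BMP2 and BMP4 reached at most 0.01 CPM in a library. TGFB1 raised 2 of the 4 and lowered 1. GDF11, a ligand of the activin type, fell by 0.47 and GDF15, a stress-induced ligand, rose by 0.19 (edgeR, both called). PI3Ki lowered 2, BMP8B by 0.35 and GDF15 by 0.27, and TGFBRi changed none of the 4.

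BMPR2, the type II receptor for BMPs, rose under TGFB1 and PI3Ki and fell under TGFBRi. It was at 36.6 and 37.2 CPM in untreated cells, 53.3 and 56.7 under TGFB1, 47.9 and 44.1 under PI3Ki, and 25.2 in both TGFBRi libraries. It rose by 0.56 ± 0.063 under TGFB1 (edgeR, adjusted p = 3.32e-07), fell by 0.54 under TGFBRi (SE 0.065, edgeR, adjusted p = 2.32e-05) and rose by 0.42 ± 0.063 under PI3Ki (edgeR, adjusted p = 9.8e-05). Its highest level was under TGFB1, whereas that of ID1 to ID3 was under PI3Ki. Of 14 receptors tested of 15 listed, TGFB1 raised 4 and lowered 4, TGFBRi raised 1 and lowered 1, and PI3Ki raised 1 and lowered 4. TGFBR2, the type II receptor for TGF-beta, rose by 1.05 under TGFB1 and fell by 0.42 under PI3Ki. TGFBR3, a co-receptor, fell by 1.21 under TGFB1, rose by 0.49 under TGFBRi and fell by 0.51 under PI3Ki. BMPR1A, a type I BMP receptor, was at 9.43 to 11.9 CPM and was not called in any treatment.

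All 8 SMADs were tested, with 4 up and 1 down under TGFB1, 1 up and 2 down under TGFBRi and 1 down under PI3Ki. SMAD7, an inhibitory SMAD, rose by 2.29 under TGFB1 (edgeR, adjusted p = 7.01e-16) and fell by 0.37 under TGFBRi (edgeR, adjusted p = 0.0208). SMAD6, the inhibitory SMAD that acts on BMP receptors, lay at only 0.24 to 1.23 CPM. It rose by 0.83 under TGFB1 (edgeR, adjusted p = 0.00208), fell by 1.35 under TGFBRi (edgeR, adjusted p = 0.00433) and stood at 0.21 under PI3Ki (edgeR, adjusted p = 0.584). SMAD3 rose by 0.35 under TGFBRi and fell by 0.31 under PI3Ki. SMAD5, which carries BMP signals, rose by 0.25 under TGFB1, and SMAD1, the other main carrier, was at most 0.28 CPM and was not called. Among 13 BMP antagonists and inhibitors tested of 19, TGFB1 raised 5 and lowered 1, TGFBRi changed 0 and PI3Ki raised 1 and lowered 2. SMURF2, a ubiquitin ligase for SMADs and receptors, rose by 2.10 under TGFB1.

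Of the 15 other BMP target genes, TGFB1 raised 8 and lowered 3, with a median log2 change of 0.27. TGFBRi lowered 3, SMAD6, SMAD7 and DLX2, with a median of -0.05. PI3Ki raised 3 and lowered none, with a median of 0.21, and the 3 were HEY1, MSX1 and DLX5. HEY1, a Notch and BMP target, rose by 0.71 under TGFB1 and by 0.26 under PI3Ki, and MSX1, a homeobox gene, by 0.28 under PI3Ki. KLF10 rose by 1.07 under TGFB1. BAMBI, a decoy receptor that BMPs induce, was at 29.4 to 40.5 CPM and was not called in any treatment.

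Genes that SMAD2 and SMAD3 switch on gave another order of treatments. TGFB1 raised 13 of 14, with a median log2 change of 2.84, TGFBRi raised 1 and lowered 5, with a median of -0.35, and PI3Ki raised 1 and lowered 4, with a median of -0.31. PMEPA1, a feedback inhibitor of TGF-beta signaling, rose by 6.08 under TGFB1, fell by 2.35 under TGFBRi and fell by 0.55 under PI3Ki. FN1, which encodes fibronectin, rose by 4.42 under TGFB1, fell by 0.59 under TGFBRi and fell by 1.74 under PI3Ki. COL1A1, a collagen chain, rose by 5.06 under TGFB1 and fell by 2.48 under PI3Ki. SKIL, a SMAD co-repressor, fell by 1.76 under TGFBRi. PMEPA1, FN1 and COL1A1 thus fell under PI3Ki, the treatment in which ID1, ID2 and ID3 were at their highest. PI3Ki libraries also held fewer primed cells than untreated ones (0.647 to 1.21% against 2.26 to 4.47%). The part of this in the 3 falls was not tested.

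Of the E proteins, the partners of ID proteins, TCF3 was at 22.1 to 29.4 CPM and TCF12 at 21.4 to 27.0 CPM in the 8 libraries, and neither was called in any treatment. TCF4, chosen here after its values were seen, rose by 1.58 under TGFB1 and fell by 0.42 under PI3Ki, and its level was 2.65 and 4.26 CPM in untreated cells. Of 27 other bHLH genes tested of 41, TGFB1 raised 8 and lowered 8, TGFBRi lowered 3 and PI3Ki raised 3 and lowered 6. MSC, a repressor that pairs with E proteins, rose by 1.70 under TGFB1, and MYC fell by 0.86 under TGFB1 and by 0.31 under TGFBRi. HES6 fell by 0.70 under TGFB1, and BHLHE40, a clock and stress repressor, fell by 0.36 under TGFBRi and by 0.40 under PI3Ki.

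CDK inhibitors are among the genes that ID proteins are known to keep low through E proteins. TGFB1 raised 3 of 7 and lowered 2, TGFBRi changed 0, and PI3Ki raised 1 and lowered 2. CDKN1A had the largest change of the list under TGFB1, where it rose by 2.56, and it fell by 0.95 under PI3Ki. CDKN2C rose by 0.53 and CDKN2D by 0.26 under TGFB1, and CDKN2D fell by 0.23 under PI3Ki. CDKN2B fell by 0.58 under TGFB1 and rose by 0.35 under PI3Ki, and CDKN2A fell by 0.86 under TGFB1. FOXO factors are freed when PI3K is blocked. Of 16 FOXO-responsive genes, PI3Ki raised 2 and lowered 2, with a median of 0.02, TGFB1 raised 8 and lowered 1, and TGFBRi raised 2 and lowered 1. The 2 that PI3Ki raised were ERBB3 and TXNIP, a brake on glucose uptake. TXNIP rose by 0.88 under PI3Ki, 1.53 under TGFB1 and 0.32 under TGFBRi.

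Over the 8 treatment libraries, the genes most like ID1 in log2(CPM + 1), among 7840 genes with a mean of at least 10 CPM, were ID3 (Pearson r = 0.993), ID2 (0.984) and ERBB3 (0.972). ERBB3, a receptor tyrosine kinase of the EGFR family, was also the nearest gene to ID2 (0.987) and the second nearest to ID3 (0.975). ERBB3 stood at 60.5 and 62.0 CPM in untreated cells, 77.1 and 74.7 under TGFB1, 48.2 and 43.2 under TGFBRi, and 86.4 and 83.0 under PI3Ki. It is in a list as well, and it rose by 0.29 under TGFB1 (edgeR, adjusted p = 0.00125), fell by 0.41 under TGFBRi (edgeR, adjusted p = 0.000634) and rose by 0.57 under PI3Ki (edgeR, adjusted p = 2.80e-06). Its likeness was found in these same 8 libraries, so these p-values do not test that likeness. The nearest genes to ID4 were CAMK2D (0.984), a calmodulin-dependent kinase, PSAT1 (0.973), an enzyme of serine synthesis, and MRPL58 (0.972), a mitochondrial ribosomal protein. PSAT1 was at 31.3 and 34.4 CPM in untreated cells, 23.0 and 26.3 under TGFB1, 40.8 and 39.3 under TGFBRi, and 22.2 and 23.0 under PI3Ki. The r of ID4 was -0.969 with ID1, -0.982 with ID2 and -0.970 with ID3. These 8 points are 4 treatments in 2 replicates, and the coefficients describe their order only.

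The 12531 WM989 cells of the first experiment were not treated. ID4 was lower in primed than in drug-susceptible cells in 8 of 8 wells, with a mean log2 difference of -2.78 (SD 0.96). The median mitochondrial share of cells moved with the state, at 6.85 to 10.2% in primed and 11.1 to 15.9% in drug-susceptible cells, lower in primed cells in 8 of 8 wells, and its part in the state differences was not tested. The lowest well of ID4 in drug-susceptible cells was at 17.7 CPM and its highest well in primed cells at 8.42 CPM. The share of all genes that separate between the states in this way is not given here. The untreated libraries of the treatment experiment did not show this, with 26.1 and 27.8 CPM in primed and 25.5 and 27.8 CPM in drug-susceptible cells. ID2 was higher in primed cells in 7 of 8 wells, with a mean log2 difference of 0.75 (SD 0.90). ID1 and ID3 were each higher in primed cells in 2 of 8 wells, with mean log2 differences of -0.58 (SD 2.04) and -1.29 (SD 1.50), and for ID1, ID2 and ID3 the mean was smaller in size than the SD between wells. In the untreated libraries of the treatment experiment ID1 was higher in primed cells in both, at 24.6 and 22.9 CPM against 11.5 and 14.2 CPM. The wells held 35882876 to 177318308 UMIs, and since each culture was spread over wells, the 8 wells are not 8 independent cultures. The SDs between wells therefore mix loads of the same culture with different cultures. The state labels were drawn from expression in these cells, and no test is given.

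The wells that went against the others were wells 3 and 4. ID1 was at 46.7 and 37.5 CPM in their primed cells and at 7.70 and 7.36 CPM in their drug-susceptible cells. ID3 was at 82.6 and 69.4 CPM against 39.1 and 36.2 CPM. These wells are the ones of replicate r1 with few primed cells, 7.87 and 6.85%. In the corresponding wells of r2, wells 7 and 8, with 9.17 and 9.42% primed cells, ID1 was at 16.4 and 6.66 CPM in primed and at 18.4 and 21.5 CPM in drug-susceptible cells, and ID3 was lower in primed cells. In the 4 wells with most primed cells (56.9 to 79.7%), ID1 was at 3.19 to 9.67 CPM in primed and 15.5 to 46.1 CPM in drug-susceptible cells. In drug-susceptible cells, ID3 was at 109 to 229 CPM in these wells and at 36.2 to 96.4 CPM in the wells with few primed cells. The sort behind each well is not given in the cell labels. Median mitochondrial shares ran from 7.23 to 15.7% over the wells and were highest, 14.7 and 15.7%, in wells 3 and 4; their part in these values was not tested.

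**Figure D4:**
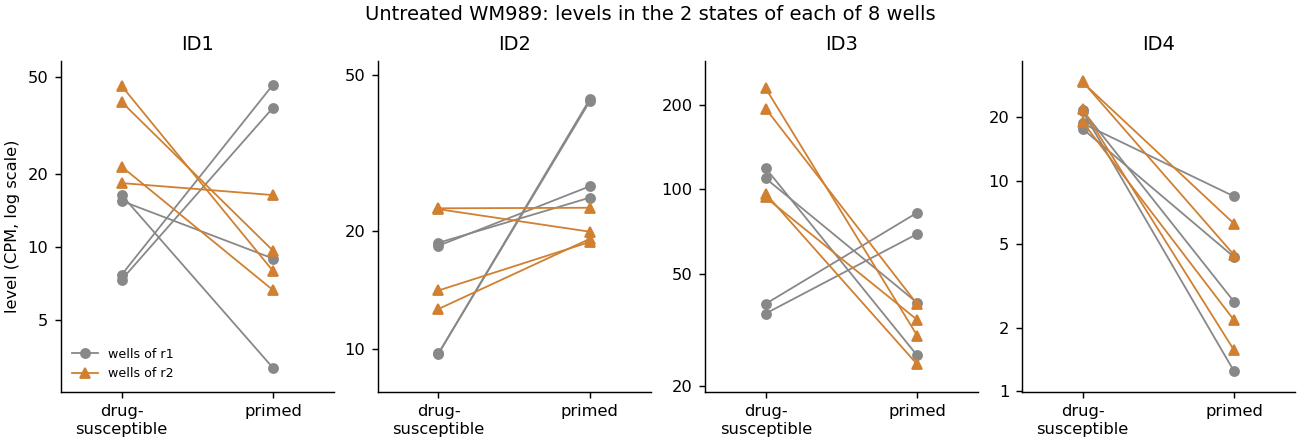
CPM of each ID gene (log axis) in the drug-susceptible and primed cells of the 8 wells of untreated WM989, with lines joining the 2 states of a well. All 8 lines of ID4 descend toward the primed state, 7 of 8 lines of ID2 climb, and for ID1 and ID3 2 lines climb and 6 descend.

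Across the 11 clusters of this experiment ID4 varied 30.0-fold, from 36.3 CPM in cluster 1 to 1.21 CPM in cluster 2, which holds primed cells. The primed clusters 8 and 9 had 7.22 and 3.30 CPM. ID1 ran from 6.25 to 21.0 CPM, ID2 from 6.71 to 28.8 CPM and ID3 from 30.5 to 96.7 CPM. These levels are summed over wells that differ. Within r1 and within r2 ID4 was highest in cluster 1 (30.8 and 43.3 CPM) and lowest in cluster 2 (1.30 and 1.11 CPM), whereas the highest and lowest clusters of ID1 differed between the replicates. The well ranges of neighbours in the order overlapped in 10 of 10 pairs for each gene. ID2 was at 23.3, 28.8 and 23.8 CPM in clusters 2, 8 and 9.

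Over these 11 clusters the r between ID1 and ID3 was 0.329, between ID1 and ID2 it was 0.164, between ID2 and ID3 -0.140, between ID3 and ID4 0.688 and between ID2 and ID4 -0.550. The nearest genes to ID4 were NPPC (0.968), which encodes C-type natriuretic peptide, TAF11 (0.962) and MRPS27 (0.958). NPPC ran from 0.60 CPM in cluster 9 to 21.4 CPM in cluster 6. Nearest to ID3 were ADA (0.931), the adenosine deaminase, RPL7 (0.902) and PPP1R9A (0.897), and nearest to ID2 were C6orf48 (0.918), SLC25A16 (0.901) and SERINC1 (0.884). For ID1 the highest values were 0.711 for THG1L, 0.668 for TAZ and 0.660 for KIAA1143. The clusters share wells and depth, and each coefficient rests on 11 points.

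WM983B gave another picture, in 1 library of 1449 cells with 102738398 UMIs, of which 50.4% of cells were primed. That share follows the authors' cell labels. The paper's flow cytometry of NT5E put a far smaller share of untreated WM983B cells in the primed state. Whether the label covers like cells in the 2 lines was not tested. There is no replicate, and the exact 95% Poisson intervals cover counting error only. ID1 was at 41.4 CPM (39.7 to 43.2) in drug-susceptible and 74.0 CPM (71.6 to 76.5) in primed cells. ID2 was at 18.0 CPM (16.9 to 19.1) and 13.8 CPM (12.8 to 14.9), and ID4 at 65.6 CPM (63.4 to 67.8) and 51.0 CPM (49.0 to 53.1). ID3 was at 80.5 CPM (78.1 to 83.0) and 83.2 CPM (80.7 to 85.8), with overlapping intervals. In primed cells ID4 stood at 0.778 of its drug-susceptible level, against 0.146 in the first WM989 experiment (the mean over wells on the log scale) and nearly equal levels in the 2 states of the untreated WM989 libraries of the treatment experiment. ID2 was lower in primed cells of WM983B and higher in 7 of 8 wells and in both of those untreated libraries of WM989. The difference between the lines was not tested.

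The cell cycle phase assigned by the authors went with the level of ID4. In the treated cells ID4 was higher than in G1 in 8 of 8 libraries for both S (mean log2 difference 0.80, SD 0.16) and G2M (0.92, SD 0.22). In untreated WM989 wells the differences were 1.72 for S and 1.74 for G2M, again in 8 of 8. State and phase went together in these wells, where 45.9% of G1 cells, 6.62% of S cells and 13.2% of G2M cells were primed. Within drug-susceptible cells, in the 7 wells with at least 20 such cells in each phase, ID4 differed from G1 by 0.92 (SD 0.26) in S and 1.11 (SD 0.37) in G2M, higher in 7 of 7. ID1 was higher in G2M than in G1 in 8 of 8 treated libraries, by 0.84, and in 7 of 8 wells, by 0.74, or by 0.22 (6 of 7 wells) within drug-susceptible cells. ID2 was lower in S than in G1 in 8 of 8 treated libraries, by a mean of -0.46 on the log2 scale, and in 8 of 8 wells, by -0.79. Within drug-susceptible cells ID2 was higher in S than in G1 in 2 of 8 libraries and 1 of 7 wells, with means of -0.35 and -0.77. ID3 was lower in G2M in 8 of 8 treated libraries, with a mean of -0.41, but in only 4 of 8 wells. Within drug-susceptible cells ID3 was higher in G2M than in G1 in 0 of 8 libraries and 1 of 7 wells, with means of -0.36 and -0.24.

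WM983B differed from WM989 in part of this. ID4 was at 54.2 CPM in G1, 51.6 in S and 67.7 in G2M, and ID1 at 30.5, 57.5 and 75.6 CPM. Within drug-susceptible cells of WM983B, however, ID4 was higher than in G1 in S (log2 difference 0.16) and in G2M (0.43), the direction seen in WM989. ID2 was at 12.1, 14.8 and 19.7 CPM and ID3 at 62.6, 87.0 and 91.7 CPM, both lowest in G1.

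The share of cells with at least 1 UMI moved in the same order as the levels once depth was equal. After each cell had been thinned to 5000 UMIs, which left out 33 shallower cells (7 untreated, 9 TGFB1, 14 TGFBRi and 3 PI3Ki), ID3 was seen in 14.6% of untreated cells, 26.0% of TGFB1 cells, 2.31% of TGFBRi cells and 38.4% of PI3Ki cells. Without thinning these shares were 34.7, 47.1, 6.20 and 67.1%. ID1 was seen in 5.58, 8.46, 1.44 and 15.7% of thinned cells in the same order of groups, against 16.8, 19.4, 3.83 and 39.3% unthinned. ID2 was seen in 4.03, 5.41, 2.18 and 7.67% of thinned cells (13.3, 13.4, 5.86 and 25.9% unthinned). ID4 gave 11.6, 8.95, 14.7 and 8.41%, and unthinned 33.7, 23.0, 33.6 and 27.4%. The unthinned ID4 shares put TGFB1 below PI3Ki, against the order of the CPM, and no order is read from them. A single cell line has no cell type that should lack these genes, so the share that free RNA gives was not measured.

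Within single cells the Spearman coefficient was highest for ID1 with ID3. It was 0.46 over WM989 cells, 0.42 over WM983B cells and 0.38 over treated cells. For ID1 with ID2 it was 0.24, 0.22 and 0.19, and for ID2 with ID3 0.27, 0.24 and 0.23. ID4 gave -0.06 to 0.11 with the other members over all cells, while within single WM989 wells it reached 0.467 with ID3 and 0.434 with ID1. In the treated cells the coefficient of ID1 with ID3 ran from 0.048 to 0.444 between libraries. Cells share depth within a library, and these coefficients are descriptions only.

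Open chromatin was measured by ATAC-seq in WM989 cells sorted for EGFR and NGFR, 2 surface markers of the primed state, with 3 libraries each of EGFR-High, NGFR-High and EGFR-NGFR-High cells and of the sort labelled Mix. The methods list a sort negative for both markers and none named Mix, so whether Mix is that sort or unselected cells is not settled here. The measure is the fold enrichment of the highest peak within 500 bp of the RefSeq start, and the peak lists held 213412 to 271153 entries per library. All 4 ID starts lay in a peak in 12 of 12 libraries, as did 47.4% of all 27305 starts and 90.2% of the 14365 with a peak in at least 3 libraries. ID1 was at 91.8, 87.2 and 79.9 in Mix, 92.2, 90.3 and 86.1 in EGFR-High, 97.4, 105.4 and 95.9 in NGFR-High and 110.7, 91.7 and 86.8 in EGFR-NGFR-High. Its NGFR-High libraries were all above its Mix libraries, and for 27.4% of all starts these 2 sorts did not overlap either. The other sorts of ID1 overlapped with Mix.

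ID2 was at 77.1, 69.8 and 76.5 in Mix and at 56.3, 61.0 and 55.3 in EGFR-High, without overlap, which 15.9% of all starts also showed for this pair of sorts. Its NGFR-High libraries ran from 64.3 to 73.3 and its EGFR-NGFR-High libraries from 61.9 to 80.0, both overlapping Mix. ID3 was at 65.9, 50.4 and 67.8 in Mix and at 68.4, 92.7 and 76.2 in NGFR-High, without overlap by a narrow gap, and its other sorts overlapped Mix. The share of all starts that did not overlap between NGFR-High and Mix was the same 27.4%, and it was 15.7% for EGFR-NGFR-High. ID4 was at 56.5 ± 6.38 (SD, n = 3) in Mix, 48.9 ± 3.27 in EGFR-High, 57.6 ± 11.1 in NGFR-High and 52.8 ± 13.1 in EGFR-NGFR-High, and all sorts overlapped.

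The 9 marker-high libraries together were tested against the 3 Mix libraries over 14365 gene starts. The difference was 8.88 for ID1 (exact two-sided permutation test over 220 splits, p = 0.118, adjusted p = 0.639) and -9.11 for ID2 (exact permutation, p = 0.0955, adjusted p = 0.609). It was 11.03 for ID3 (exact permutation, p = 0.145, adjusted p = 0.669) and -3.37 for ID4 (exact permutation, p = 0.609, adjusted p = 0.901). In none of the 4 genes did the 2 groups separate with all libraries, and 2.92% of all starts did. Without replicate 3 the groups separated for ID3 (exact permutation, p = 0.0714, adjusted p = 0.588), and the share of all starts that did so there is not given. Without replicate 2 the difference of ID3 was 2.03 (exact permutation, p = 0.714), and that of ID4 turned to 1.86. By this permutation test 0 of the 14365 starts (0%) passed an adjusted p of 0.05 and 1276 (8.88%) had an unadjusted p below 0.05, and the smallest p the design allows is 0.00455. With so few splits against so many starts, a missing call says little about a gene.

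**Figure D5:**
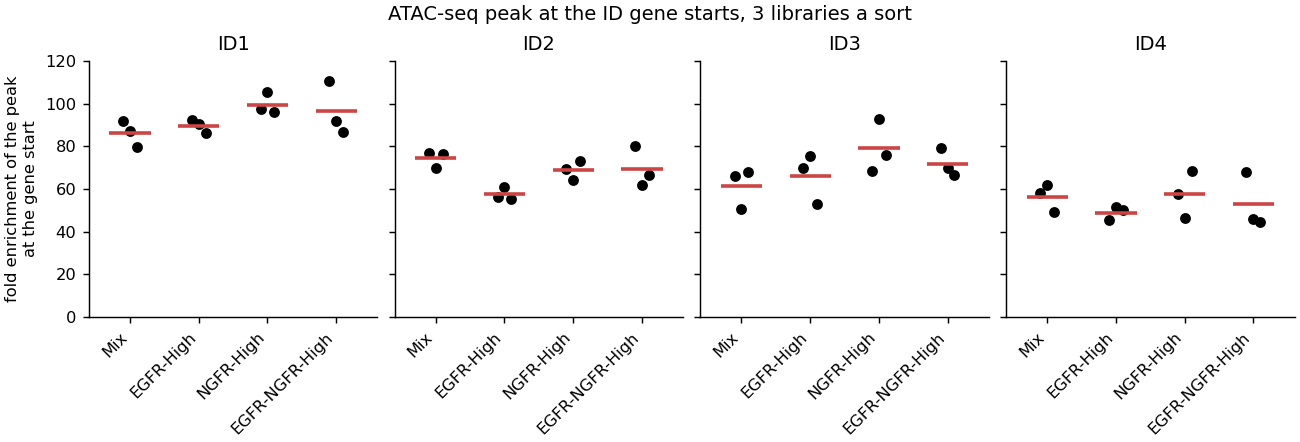
Fold enrichment of the ATAC peak at the start of each ID gene (vertical axis) in 3 libraries per sort, with a red bar at the mean of 3. The sorts overlap for ID4, while the EGFR-High points of ID2 (55.3 to 61.0) lie below its Mix points (69.8 to 77.1).

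Within 50 kb of the starts lay 18 regions with a peak in at least 3 libraries for ID1, 9 for ID2, 12 for ID3 and 9 for ID4, of which 12, 7, 8 and 7 had a peak in all 12 libraries. The region chr20:31595462-31596814, centred at -9151 bases from the ID1 start on the hg38 build of the files, was chosen after its values were seen. It had a mean fold enrichment of 9.58 in Mix, 16.0 in EGFR-High, 34.0 in NGFR-High and 30.0 in EGFR-NGFR-High. Its 3 Mix libraries were at 13.0, 8.01 and 7.74 and its 3 NGFR-High libraries at 40.6, 33.2 and 28.2. The share of all regions that separate between these sorts is not given, and at gene starts it was 27.4%. Around ID4 the region at -32385 bases from the start had means of 32.5, 32.6, 42.1 and 42.4 in the same order of sorts. Around ID2 the region at 15301 bases had means of 23.4, 14.6, 17.8 and 17.9. The regions named here are examples out of all those counted. Which gene a region acts on is not shown by these data.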

How the data were processed

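Single-cell RNA of WM989 and WM983B cells was captured on the 10x platform, and the authors deposited raw UMI counts per gene and cell, with the cell's library, replicate, state, cluster and phase and its mitochondrial share in percent. The submitters' notes name Cell Ranger, Bowtie2 2.3.4.1, SAMtools 1.1 and MACS2 2.1.1.20160309, and hg38. For ATAC-seq the authors deposited MACS2 peak lists per library with a fold enrichment ratio and a −log10 q-value. The authors' cell filters were kept, which per their methods dropped cells with few genes and likely doublets with many genes, and no doublet caller was run.

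For each library the counts of its cells were added up. Genes passed filterByExpr, libraries were scaled by TMM, and edgeR 4.0.16 (quasi-likelihood, replicate plus group, 8 libraries, R 4.3.3) gave log2 fold changes with Benjamini-Hochberg adjustment over 18389 genes. Each replicate culture was split over the 4 arms, so the replicate is a block. The r2 minus r1 differences correlated in 6 of 6 pairs of arms, with r from 0.226 to 0.660 over 7840 genes. With 2 libraries a group and the replicate as a block, 3 residual degrees of freedom remain. The p-values rest on how treatment differences varied between these 2 cultures. They also rest on spread shared over all genes (median prior degrees of freedom 18.4). They do not cover other cultures. The fit was also run on simulated counts with known changes, as a check of the code and not of the calls given here. The members and lists were chosen with earlier results of these data known. List genes were named where called, at a mean of at least 5 CPM, and among the 4 with the largest change of a list and treatment. CDKN1A, SMAD6, DLX2, DLX5, TCF3, TCF4, TCF12, BMPR1A, SMAD1, BAMBI, BMP2, BMP4, BMP7, PECAM1, VWF, CDH5, COL1A2, PDGFRA, LUM and DCN fall outside that rule and were named after their values were seen. One list gene that the rule picks is not reported here. Likeness is Pearson's r of log2(CPM + 1). At each RefSeq gene start the highest peak within 500 bp was taken, with 0 where none lay there, for starts with a peak in at least 3 libraries. Depth was 35882876 to 177318308 UMIs per WM989 well, 102738398 for WM983B and 70239657 to 122420544 for treated libraries. Intervals cover counting error only. Alternatives were DESeq2 1.42.0, RLE scaling, no filter, no block, leaving out each library, and summing drug-susceptible, G1 or equal numbers of cells. Phases were also compared within drug-susceptible cells, chosen after seeing the data.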

Additional observations from a re-analysis of the deposited data

Results flagged for a closer look

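ID2 differed between TGFB1 and untreated libraries in opposite directions in the 2 states of treated WM989 cells. In drug-susceptible cells it was lower than in the untreated library of the same replicate in both replicates, and in primed cells it was higher in both. The mean log2 difference in primed cells minus that in drug-susceptible cells was 0.966. The difference between the states was not tested. The untreated primed cells behind it numbered 94 and 165. They lay mostly in cluster 10 (89 and 159 cells), whereas the TGFB1 primed cells lay mostly in cluster 4 (1548 of 1577 and 1706 of 1757), so the primed value compares different clusters. Within cluster 10 ID2 was at 14.03 and 13.0 CPM under TGFB1 and at 13.7 and 18.4 CPM in untreated cells. The drug-susceptible value compares different clusters as well, with 3801 TGFB1 and 115 untreated cells in cluster 3. A search of 12 groups of libraries for a single value far from the others, a search in which chance alone would pick about 1 group in 20, found none.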

How the results depend on the processing

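The 3 rises and the fall under TGFB1 kept their direction and their call under DESeq2, RLE scaling, no filter, no replicate block, equal cell numbers and without each library in turn (log2 0.54 to 0.65 for ID1, 0.45 to 0.53 for ID2, 0.66 to 0.93 for ID3 and -0.42 to -0.25 for ID4). In drug-susceptible cells ID1 was at 0.015, ID2 at -0.32 and ID4 at -0.054, and in G1 cells ID2 was at 0.17 and ID4 at 0.080, both without a call. ID3 kept its call in both. In G1 cells the PI3Ki values were 1.97, 2.10 and -0.15 for ID1, ID3 and ID4, and the TGFBRi values -2.66, -2.68 and 0.54. In drug-susceptible cells TGFBRi gave -2.27 for ID1. Without each library in turn ID1 ran from -2.23 to -2.04 under TGFBRi and 1.58 to 1.72 under PI3Ki, ID2 from -0.98 to -0.79 and 1.12 to 1.28, ID3 from -3.06 to -2.87 and 1.63 to 1.87, and ID4 from 0.40 to 0.47 and -0.46 to -0.33.

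Counts of genes called moved more. Without the replicate block, TGFBRi called 40 genes (466 with it) and 3 list entries, and PI3Ki called 649 genes (2328 with it) and 8 list entries. Omitting the block changed no call of a member under TGFB1. In drug-susceptible cells TGFB1 called 2665 genes (5324 in all cells), and TGFBRi called 148 genes and 7 list entries in G1 cells and 748 genes without a filter. DESeq2 called 3762 genes under TGFB1. Without each library in turn the genes called ran from 3164 to 6377 under TGFB1 (fewest without TGFB1 r1, and 3515 without untreated r2), from 168 to 1146 under TGFBRi (168 without untreated r2, 285 without untreated r1, 1146 without TGFBRi r1), and from 719 to 3298 under PI3Ki (719 without PI3Ki r2, 879 without untreated r2, 1069 without PI3Ki r1, 1302 without untreated r1). List entries called ran from 59 to 78, 5 to 19 and 11 to 42 in the same order.

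For CPM summed over wells, the log2 ratio of primed to drug-susceptible cells was -0.33 for ID1 over all wells of WM989 and 0.55 within r1, where wells 3 and 4 lie. In WM983B the thinned shares of cells gave 0.25 for ID1 and -0.28 for ID3. The ATAC difference of ID4 was 1.37 in −log10 q, and without each replicate in turn it ran from -7.58 to 1.86 (1.86 without replicate 2), that of ID3 from 2.03 to 17.8, that of ID1 from 8.43 to 9.19 and that of ID2 from -9.98 to -7.94. With the replicate block (64 splits, exact permutation) the ATAC p was 0.0625, 0.0938, 0.188 and 0.625 for ID1 to ID4. With percentile ranks in place of fold enrichment the unadjusted exact permutation p fell to 0.00909 for ID1 and 0.0273 for ID2 (adjusted p 0.159 and 0.240). In every ATAC alternative 0 of the starts tested passed an adjusted p of 0.05. The few splits limit how small p can be, and a missing call thus says little about a member. In drug-susceptible cells only, an alternative added after the data were seen, the log2 difference from G1 in WM989 wells turned to -0.19 for ID1 in S and -0.24 for ID3 in G2M. The cause of these shifts was not tested. Several values rest on few cells, among them those of primed PI3Ki cells (25 and 70) and of TGFB1 cells in cluster 10 (29 and 51).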
